A study of Mus musculus with 34 samples.

Results

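The mitochondrial respiratory chain was examined through its nuclear-encoded subunits in the blood of wild-type mice given PBS, ALY688, LPS, or both agents. The set held the 87 protein-coding gene IDs, of 54532 in the count tables, whose symbols begin with Ndufa, Ndufb, Ndufc, Ndufs, Ndufv, Uqcr, Cox4 to Cox8 or Atp5, together with Sdha, Sdhb, Sdhc, Sdhd and Cyc1. Assembly factors beginning with Ndufaf and pseudogene symbols were left out. By complex there were 38 members in complex I, 4 in complex II, 9 in complex III, 18 in complex IV and 18 in complex V, with 86 distinct symbols.

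The electron transport chain passes electrons from NADH (complex I) and succinate (complex II, succinate dehydrogenase, which is also an enzyme of the TCA cycle) through ubiquinone to complex III, then by cytochrome c to complex IV, which reduces oxygen. Complexes I, III and IV pump protons, and complex V, the ATP synthase, uses the gradient. Complex II alone has no subunit encoded in the mitochondrial genome, so its genes are all nuclear. In blood, mature mammalian red cells have lost their mitochondria but reticulocytes and platelets still carry some, mature neutrophils rely largely on glycolysis, and lymphocytes and monocytes respire more. Several complex IV subunits exist as alternative isoforms: Cox6a1 is the widely expressed form and Cox6a2 the heart and skeletal muscle form, and Cox6b2 is known as the testis form of Cox6b.

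All 4 groups were labelled as wild-type (WT) mouse blood and differed in treatment: PBS (the vehicle), ALY688 (an agonist of the adiponectin receptors, per the series title), LPS (bacterial lipopolysaccharide, used at a sublethal dose per the series text) and ALY688+LPS. Count tables were analysed for 30 of 34 labelled mice, 9 with PBS, 10 with ALY688, 4 with LPS and 7 with ALY688+LPS; 1 PBS mouse (number 10) and 3 LPS mice (3, 4 and 5) are not analysed here. Dose, time after injection, strain, sex and age were not given in the labels. The series text describes the mice without LPS as 1 experiment, on plasma, and the LPS model as another, on whole blood, so wherever groups with and without LPS are compared, the experiment and the LPS cannot be told apart. Each library is from 1 numbered mouse.

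Libraries held between 9554964 and 17338214 counts, of which globin genes took 56.3% ± 6.22 (SD, n = 9) with PBS, 49.2% ± 6.51 (n = 10) with ALY688, 30.4% ± 10.4 (n = 4) with LPS and 40.5% ± 10.96 (n = 7) with ALY688+LPS. The range was 45.1 to 64.3% with PBS and 18.4 to 43.7% with LPS, without overlap. In LPS against PBS a fit with globin percentage as a covariate therefore cannot separate globin from the group. Calls lost or signs turned in that fit do not show how robust a change is. The ranges with ALY688 (42.2 to 60.8%) and ALY688+LPS (26.3 to 54.3%) overlapped. In 6 libraries fewer than 16000 genes had a count: PBS mice 5, 6 and 9, ALY688 mouse 7, and ALY688+LPS mice 6 and 8. These 6 had 14351 to 15830 genes against 16263 to 19746 in the other 24, and the counts of calls and the members' medians are given with and without them. The cut is a chosen one, falling between 15830 (ALY688+LPS mouse 6) and 16263 (PBS mouse 7) without a wide gap. Globin overlapped too, at 53.5 to 64.3% in the 6 and 18.4 to 59.3% in the others. In the 3 PBS libraries among them the summed level of 8 platelet markers was 12560 to 29274 CPM (counts per 1000000), against 1786 to 8879 in the other 6 PBS libraries. Levels below are CPM after TMM scaling, which sets libraries to a common level over most genes, and because TMM factors differ widely here the values are comparable between libraries but need not sum to 1000000. Neutrophil markers marked the LPS groups: the sum over 10 markers was 571 to 2154 CPM with PBS and 4089 to 14123 with LPS, and the sum over 8 B cell markers was 935 to 2940 CPM with PBS and 166 to 426 with LPS. These are mixed blood samples, so fewer cells of a type and less RNA per cell cannot be told apart in any value that follows, and the part of cell composition in the members' differences was not tested.

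The 4 promoters printed next belong to members on which the results turn: Sdhb and Sdhd were higher in both comparisons across LPS, and Cox6a1 and Cox6b2 were lower in LPS than in PBS. Each is the RefSeq window from 250 bases before to 50 bases after the annotated start (GRCm38.p6), written 5′ to 3′ on the gene's strand, with capitals marking matches on either strand to the NRF1 motif (GCGC, any base, then TGCGC; NRF1 is a regulator of nuclear genes for mitochondrial proteins) or CCGGAAG (an ETS motif of the kind bound by GABPA, also called NRF2). Sdhb lies at chr4:140961021-140961320 on the plus strand, Sdhd at chr9:50603800-50604099 on the minus strand, Cox6a1 at chr5:115348909-115349208 on the minus strand and Cox6b2 at chr7:4753045-4753344 on the minus strand.
Sdhb: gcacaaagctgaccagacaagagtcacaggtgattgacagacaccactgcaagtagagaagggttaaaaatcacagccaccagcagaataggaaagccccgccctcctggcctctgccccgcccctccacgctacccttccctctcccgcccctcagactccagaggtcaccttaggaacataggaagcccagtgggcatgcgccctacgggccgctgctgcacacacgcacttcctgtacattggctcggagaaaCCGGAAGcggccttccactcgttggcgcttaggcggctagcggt
Sdhd: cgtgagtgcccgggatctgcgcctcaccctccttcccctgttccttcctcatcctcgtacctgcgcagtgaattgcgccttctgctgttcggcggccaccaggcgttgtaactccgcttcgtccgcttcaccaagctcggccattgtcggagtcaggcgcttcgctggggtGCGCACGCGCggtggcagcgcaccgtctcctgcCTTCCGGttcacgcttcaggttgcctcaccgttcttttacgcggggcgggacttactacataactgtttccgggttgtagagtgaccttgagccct
Cox6a1: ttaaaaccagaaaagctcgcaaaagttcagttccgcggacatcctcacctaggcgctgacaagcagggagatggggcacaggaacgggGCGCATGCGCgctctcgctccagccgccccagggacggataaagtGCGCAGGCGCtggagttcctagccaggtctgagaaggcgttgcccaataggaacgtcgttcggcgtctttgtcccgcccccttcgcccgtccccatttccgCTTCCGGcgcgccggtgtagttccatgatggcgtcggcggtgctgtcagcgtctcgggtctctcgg
Cox6b2: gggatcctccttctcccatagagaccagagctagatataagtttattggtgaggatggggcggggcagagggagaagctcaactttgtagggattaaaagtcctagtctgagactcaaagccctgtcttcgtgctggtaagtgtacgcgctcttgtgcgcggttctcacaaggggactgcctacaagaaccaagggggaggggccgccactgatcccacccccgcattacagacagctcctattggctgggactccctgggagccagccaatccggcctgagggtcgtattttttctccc

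The Sdhd window held 1 match to the NRF1 motif and 1 to the ETS motif, the Cox6a1 window 2 and 1, the Sdhb window 1 ETS match just past the start, and the Cox6b2 window neither, so a rising and a falling member both held the motifs. RefSeq promoters were matched for 67 of 86 symbols, giving 72 windows of 300 bases. The NRF1 letters were in 25% of the members' windows against 4.60% of all 32841 promoters, and the ETS letters in 22.2% against 8.86%. The YY1 motif AAGATGGC was in 12.5% of the members' windows against 2.75%, and the CREB motif TGACGTCA in 5.56% against 1.79%; the motifs were searched on both strands and were not checked for overlap with each other. Of the 13 windows of members that passed upward across LPS in both comparisons without the 6 libraries of few genes, 3 held the NRF1 letters and 5 the ETS letters. Of the 4 windows of members that passed downward in both, 1 held the NRF1 letters and 2 the ETS letters. A match is a description of these letters and no evidence of binding.

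Of the 87 members, 79 had enough counts to be tested in every comparison of 2 groups: 37 in complex I, 4 in complex II, 9 in complex III, 12 in complex IV and 17 in complex V. The members left out were mostly the tissue-restricted isoforms. Over all 30 libraries Cox6a2 had 155 counts, Cox7a1, the muscle and heart form of Cox7a, 55, Cox4i2, the lung form of Cox4, 17, Cox8b 6, Cox8c 4 and Ndufa4l2, a hypoxia-responsive relative of Ndufa4, 4, while Cox7b2 and a second gene ID with the symbol Atp5o had 0. Cox6b2 was the exception among tissue-restricted isoforms, with 7061 counts over the 30 libraries. On a per-length scale (CPM per kilobase of the main transcript) the median level in PBS was 323 for Cox6a1, 214 for Atp5b, the catalytic beta subunit of ATP synthase, 153 for Cox6c and 48.0 for Cox6b2, and Cox6a1 ranked first of the members in all 4 groups. Among complex II genes the per-length median in PBS was 17.2 for Sdhb, 16.6 for Sdha, 12.4 for Sdhd and 3.78 for Sdhc.

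In LPS against PBS the members split: Sdhb, Sdhc and Sdhd of complex II rose, while Cox6a1, Cox6b2, Cox6c and Cox7a2l of complex IV fell. The test was edgeR's quasi-likelihood F-test with Benjamini-Hochberg adjustment over all 12353 genes, passed at an adjusted p below 0.05. Of 79 members, 12 rose and 12 fell; among all genes tested 38.7% passed, 20.9% upward and 17.9% downward, so the members passed no more often than other genes, at 15.2% in each direction. The median log2 fold change of the members was 0.09, against -0.04 over all genes. By complex, 3 of 4 rose and none fell in complex II (median 0.68), 3 rose and 2 fell of 37 in complex I (0.15), 1 and 1 of 9 in complex III (0.20), 1 and 4 of 12 in complex IV (-0.77) and 4 and 5 of 17 in complex V (-0.03). With library totals in place of TMM, where the median of all genes moved to 1.04, the split was 53 higher and 1 lower. Over all 12353 genes it was then 5597 higher and 298 lower.

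Leaving out the 6 libraries of few genes removed 3 PBS libraries and 0 LPS libraries from LPS against PBS. Then 16 of 79 members rose and 9 fell (43% of all genes passed, 22.2% upward and 20.8% downward). The median of complex II was then 0.64 with the same count of 3 higher, and complex III had 2 higher and none lower. Complex IV still had 1 higher and 4 lower, and its median moved from -0.77 to -0.18. With all libraries, globin percentage as a covariate left 3 members higher (Atp5f1, Ndufa8 and Ndufb6) and 0 lower. Over all 12353 genes 1620 were then higher and 1645 lower. Globin percentage did not overlap between PBS and LPS, so this fit cannot separate it from the group. Of the 24 calls with all libraries, 10 held when each of the 13 mice was left out in turn: Sdhb, Sdhd, Ndufa8, Ndufc1 and Cox5b upward, and Cox6b2, Cox6c, Cox7a2l, Atp5e and Atp5s downward. Without LPS mouse 2 alone 12 calls were lost, without LPS mouse 6 alone 13, and without LPS mouse 8 alone 7.

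**Figure D1:**
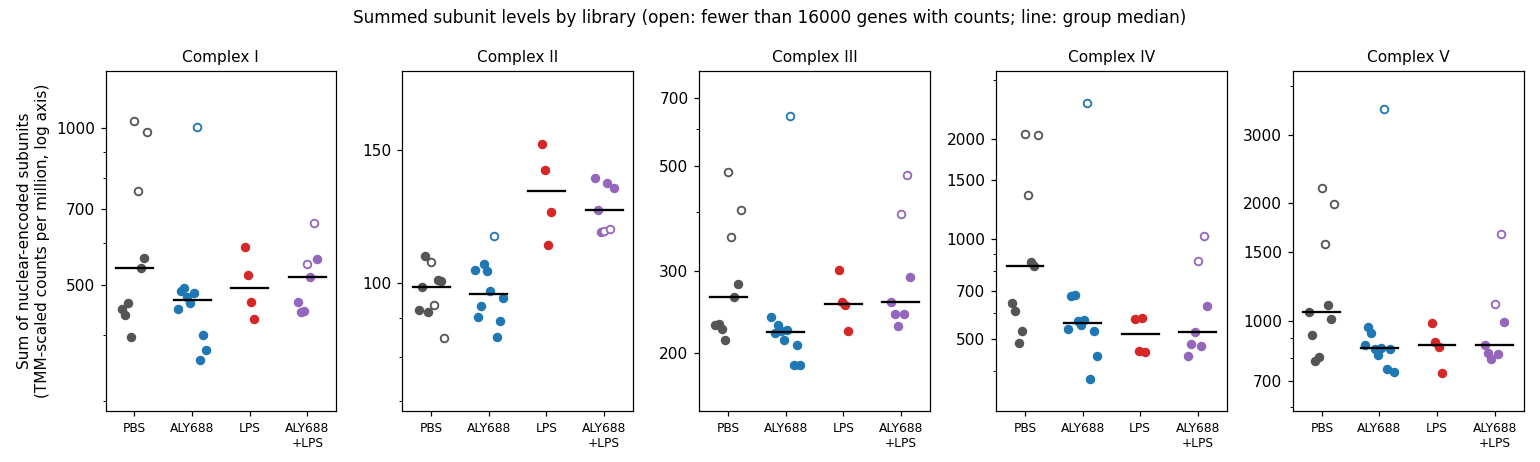
Summed level of each complex's members in every library, in TMM-scaled CPM on a log axis, by treatment group; each point is 1 mouse, lines are group medians and open points are the 6 libraries with fewer than 16000 genes. Complex II lay between 84.8 and 108.6 CPM with PBS and between 112.4 and 152.8 with LPS, while the complex IV sums of 1356 to 2064 in 3 PBS mice lay above all 4 LPS mice.

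The sum over complex II did not overlap between PBS and LPS: it was 84.8 to 108.6 CPM (median 99.0, n = 9) with PBS and 112.4 to 152.8 (median 132.6, n = 4) with LPS. With ALY688 it was 84.97 to 115.7 CPM (median 96.7, n = 10) and with ALY688+LPS 117.0 to 137.9 (median 124.9, n = 7), again without overlap. The complex IV sum was 487 to 2064 CPM (median 828) with PBS, 380 to 2562 (median 559) with ALY688, 457 to 579 (median 519) with LPS and 446 to 1023 (median 527) with ALY688+LPS. Within PBS, the mice 5, 6 and 9 had complex IV sums of 1356 to 2064 CPM and the other 6 mice 487 to 852, a range that overlaps the LPS mice. The sums of complex I (398 to 1028 CPM with PBS, 430 to 592 with LPS), complex III (213 to 488, 224 to 301) and complex V (789 to 2184, 733 to 988) overlapped between these groups.

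Within complex II, the iron-sulfur subunit Sdhb and the membrane anchors Sdhc and Sdhd rose while the catalytic flavoprotein Sdha did not pass. Sdhb (ENSMUSG00000009863, 4:140961203-140979193, + strand) was at 14.1, 19.7 and 24.5 CPM (lowest, median and highest of 9 PBS mice) and at 38.7, 34.0, 33.8 and 29.6 in LPS mice 2, 6, 7 and 8. Every LPS mouse was above every PBS mouse, and the change was 1.73-fold (log2 0.79, SE 0.15, edgeR adjusted p = 5.27e-04). Sdhd, the small anchor, was at 12.01, 15.3 and 22.9 CPM with PBS and at 31.5, 27.6, 23.4 and 25.7 with LPS.

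Its ranges also did not overlap, though PBS mouse 5 at 22.9 CPM lay close below LPS mouse 7 at 23.4, and the change was 1.74-fold (log2 0.80, SE 0.16, edgeR adjusted p = 8.00e-04). Sdhc, the large anchor, was at 9.18, 11.97 and 17.2 CPM with PBS and at 21.5, 22.8, 14.2 and 15.7 with LPS. LPS mice 7 and 8 lay inside the PBS range, and Sdhc was 1.49-fold higher (edgeR adjusted p = 0.0204); the call was lost without LPS mouse 2 or without LPS mouse 6. Sdha was at 44.8, 48.2 and 56.4 CPM with PBS and at 61.1, 56.7, 41.1 and 53.1 with LPS, with 2 LPS mice above and 1 below all PBS mice, and its log2 fold change of 0.09 had a 95% interval of -0.22 to 0.40. With globin percentage as a covariate Sdhb (log2 0.63, edgeR adjusted p = 0.111) and Sdhd (0.83, adjusted p = 0.0640) no longer passed.

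ALY688+LPS against ALY688, the ALY688 pair for short, gave a second comparison across LPS in other libraries. Sdhb was at 15.2, 18.4 and 22.8 CPM in 10 ALY688 mice and at 23.5, 27.9 and 35.1 in 7 ALY688+LPS mice. Sdhd was at 12.4, 14.7 and 19.99 CPM and then at 23.3, 28.9 and 31.8. All 7 treated mice were above all 10 controls for both genes, with log2 fold changes of 0.71 (SE 0.10, edgeR adjusted p = 5.40e-06) and 0.88 (SE 0.10, adjusted p = 6.93e-07). Leaving out the 6 libraries, Sdhb was at 0.70 in LPS against PBS and 0.82 in the ALY688 pair, Sdhd at 0.82 and 0.93 and Sdhc at 0.57 and 0.73, and all 6 calls held.

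Sdhc was at 8.56, 11.2 and 13.8 CPM against 13.5, 17.1 and 22.9, with 6 of 7 treated mice above all controls, and its log2 fold change was 0.64 (SE 0.11, edgeR adjusted p = 4.21e-05). Sdha was at 41.9, 52.2 and 75.6 CPM against 44.1, 53.6 and 56.5, all treated mice lying inside the control range, with a log2 fold change of -0.05 (95% interval -0.27 to 0.17). So Sdhb, Sdhc and Sdhd passed in both comparisons and Sdha in neither; whether Sdha differed from the others was not tested. With library totals in place of TMM Sdhb did not pass in this comparison (log2 0.84, edgeR adjusted p = 0.0629).

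Over all members, 25 of 79 rose and 1 fell in ALY688+LPS against ALY688, where 53% of 12266 genes passed (26.4% upward, 26.6% downward). The members' share was 31.6% upward, near that of all genes, and 1.27% downward. The median log2 fold change was 0.17 against -0.05 over all genes. Complex I had 12 of 37 higher and none lower (median 0.14), complex II 3 of 4 (0.68), complex III 2 of 9 (0.27), complex IV 1 of 12 (0.00) and complex V 7 of 17 higher and 1 lower (0.25). Without the 6 libraries 37 rose and 6 fell (58.2% of all genes passed, 30.2% upward and 28% downward), with complex I at 17 higher and 0 lower, complex III at 5 and 0, complex IV at 3 and 4 and complex V at 9 and 2. Without ALY688 mouse 7 alone, 40 rose, but the share of all genes that rose in that fit is not given here. Of the 26 calls, 20 held without each of the 17 mice in turn, and the 6 that did not were Atp5a1, Atp5j, Atp5s, Ndufa6, Ndufb4 and Ndufb8.

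**Figure D2:**
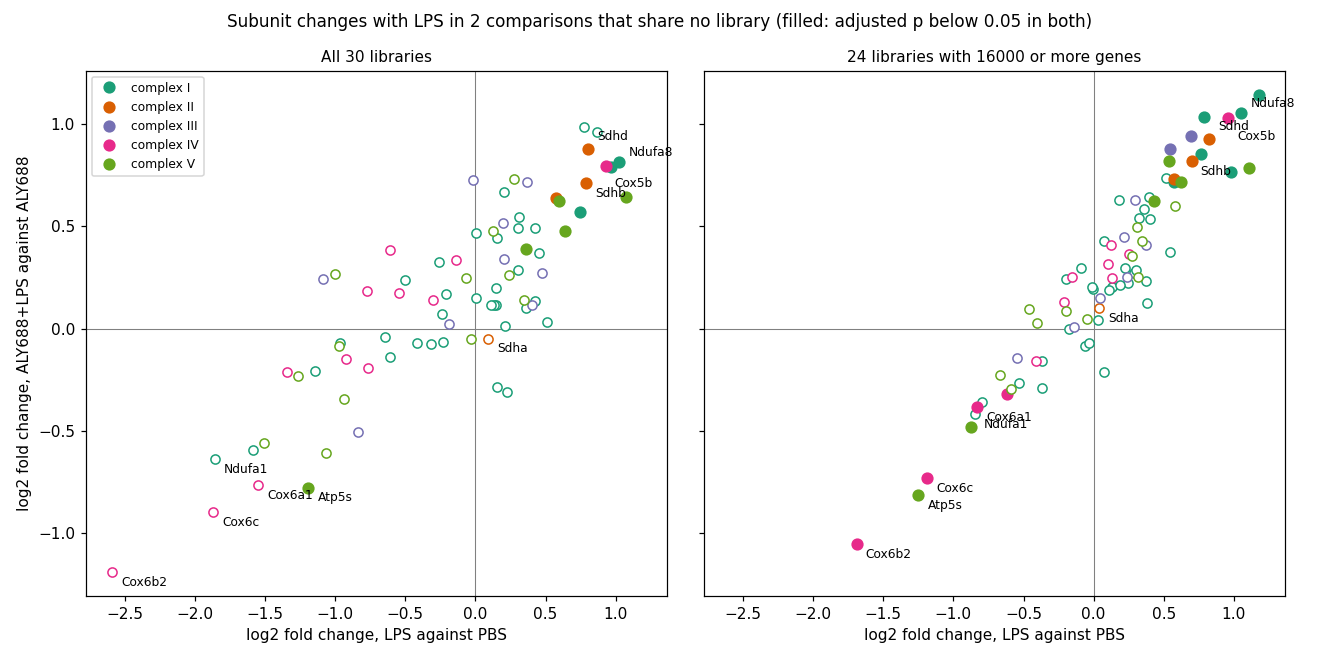
Log2 fold change of the 79 tested members in LPS against PBS (x axis) and in ALY688+LPS against ALY688 (y axis), with all libraries and without the 6 libraries under 16000 genes; each point is a gene, coloured by complex and filled where it passed in both. Of 79 members 62 had the same sign in both with all libraries and 67 without those libraries, and Sdhb, Sdhc, Sdhd, Ndufa8 and Cox5b lie together in the upper right. Over all genes the share with the same sign was 80.7% with all libraries and was not computed without those libraries.

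Of the 12 members that rose in LPS against PBS, 11 also rose in ALY688+LPS against ALY688, which is 91.7% of the first list and 44.0% of the second. Over all genes tested the same shares were 87.2% and 69.5%. The 11 members were Sdhb, Sdhc and Sdhd of complex II, Ndufa8, Ndufb8 and Ndufc1 of complex I, Cox5b of complex IV and Atp5c1, Atp5g1, Atp5g3 and Atp5o of complex V; the exception was Uqcrc1. These comparisons share no libraries. Of the 12 that fell only Atp5s, a coupling factor of ATP synthase, also fell in the second pair, at log2 -1.19 (SE 0.34) and -0.78 (SE 0.31), which is 8.33% of the first list and 100% of the second, against 62.8% and 42.4% over all genes. Without the 6 libraries 6 fell in both, Atp5e, Atp5s, Cox6a1, Cox6b2, Cox6c and Cox7a2l, which is 66.7% of 9 and 100% of 6. The 62 of 79 members with the same sign (78.5%) compare with 80.7% of all genes tested in both.

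Among complex I members the accessory subunit Ndufa8, which lies in the intermembrane space, had the smallest p in LPS against PBS. It was at 5.91, 7.54 and 9.39 CPM with PBS and at 19.0, 16.7, 14.5 and 13.3 in the 4 LPS mice. All LPS mice were above all PBS mice, and Ndufa8 was 2.03-fold higher (log2 1.02, SE 0.16, edgeR adjusted p = 1.01e-04). It was at 5.51, 7.73 and 10.2 CPM with ALY688 and at 8.89, 12.2 and 19.9 with ALY688+LPS, with 5 of 7 treated mice above all controls (log2 0.82, SE 0.15, adjusted p = 1.73e-04).

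Ndufa8 passed upward under every alternative setting and without each single mouse in both comparisons, and without the 6 libraries it was at 1.05 and 1.06. The accessory subunits Ndufc1 (0.96 and 0.79) and Ndufb8 (0.75 and 0.57) rose in both, as log2 fold changes in LPS against PBS and in ALY688+LPS against ALY688. Ndufc2, the partner of Ndufc1 at the membrane arm, passed in the second (0.96, SE 0.14) and not in the first (0.86, edgeR adjusted p = 0.0558), and the flavoprotein-arm core subunit Ndufv2 likewise (0.49 and 0.30). Of the catalytic core subunits, Ndufs1, the largest of them, had log2 fold changes of 0.01 and 0.15, Ndufv1, which binds NADH, 0.51 and 0.03, and Ndufs7, next to the ubiquinone site, -0.23 and -0.06, none of which passed. Ndufab1, the mitochondrial acyl carrier protein (0.23 and -0.31), and Ndufa4, now placed with complex IV (-1.14 and -0.21), did not pass by edgeR either. In LPS against PBS, DESeq2 called Ndufa4 lower (-1.18, adjusted p = 0.0413), as did the edgeR fit of all 4 groups, which also called Ndufv1 higher. Ndufc2 was called higher there under 6 of 10 alternative settings.

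The 2 complex I members that fell in LPS against PBS were Ndufa1 and Ndufa3, both small membrane subunits. Ndufa1, an X-linked single-pass subunit, was at 17.2, 34.9 and 161 CPM with PBS and at 16.4, 11.7, 23.0 and 14.8 with LPS. LPS mice 2, 6 and 8 were below every PBS mouse, and the log2 fold change was -1.86 (SE 0.60, edgeR adjusted p = 0.0240). Ndufa3 fell by 1.58 (adjusted p = 0.0171).

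Without the 3 PBS libraries of few genes the falls were smaller by more than 1.5 times, at -0.85 for Ndufa1 (edgeR adjusted p = 0.0321) and -0.79 for Ndufa3 (adjusted p = 0.00796). With globin percentage as a covariate both turned positive, at 0.69 and 0.48, and did not pass. In ALY688+LPS against ALY688 their log2 fold changes of -0.64 and -0.60 did not pass.

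Few complex III members passed. Uqcrc1, a core protein of the matrix arm, rose in LPS against PBS (log2 0.47, SE 0.16, edgeR adjusted p = 0.0274) but not without the 6 libraries (0.38, adjusted p = 0.0601) nor in the ALY688 pair (0.27, adjusted p = 0.0503), where it passed without the 6 libraries (0.41, adjusted p = 0.00637) and by limma-voom. Uqcrfs1, the Rieske iron-sulfur protein, was at 19.9, 22.5 and 25.6 CPM with PBS and at 30.005, 31.0, 19.6 and 23.5 with LPS, 2 mice above and 1 below the PBS range, and did not pass (0.20). In the ALY688 pair it was at 18.8, 21.3 and 23.2 CPM against 23.7, 25.3 and 31.5 without overlap and rose by 0.34 on the log2 scale (SE 0.08, adjusted p = 8.66e-04). Uqcrb, which helps bind ubiquinone, rose there too (0.72, SE 0.16), and Cyc1, cytochrome c1, did not pass in either (0.40 and 0.11).

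Uqcrh, the hinge protein that meets cytochrome c, was at 47.9, 91.1 and 222 CPM with PBS and at 50.1, 31.0, 73.2 and 48.3 with LPS. The groups overlapped, with LPS mouse 6 alone below all PBS mice, and the log2 fold change of -1.09 (SE 0.40) passed at an edgeR adjusted p of 0.0390. It did not pass without the 6 libraries (-0.55, adjusted p = 0.0903), and was positive with the globin covariate (0.96) and with library totals (0.16). In the ALY688 pair it was 0.24 and did not pass.

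**Figure D3:**
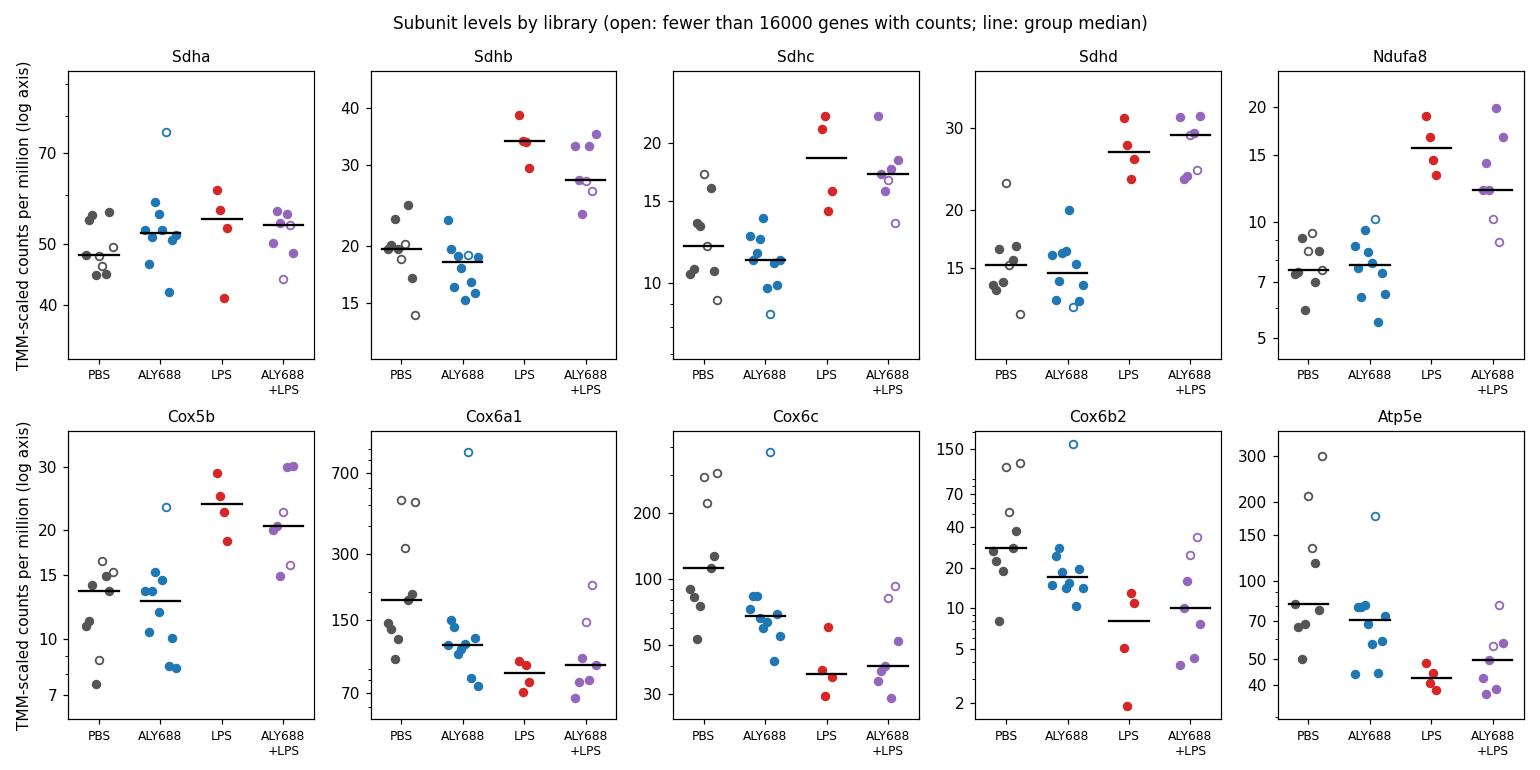
Level of 10 members in every library (TMM-scaled CPM, log axis) in the 4 groups; each point is 1 mouse, lines are group medians, and open points are the 6 libraries with fewer than 16000 genes. Sdhb, Sdhd and Ndufa8 are higher in all 4 LPS mice than in any PBS mouse, whereas the highest Cox6a1, Cox6c, Cox6b2 and Atp5e values in the groups without LPS come from the open points.

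In complex IV, Cox5b, the zinc-binding subunit, was the member that rose. It was at 7.51, 13.6 and 16.4 CPM with PBS and at 28.9, 24.9, 22.4 and 18.7 with LPS. The LPS mice were all above the PBS mice, and Cox5b was 1.90-fold higher (log2 0.93, SE 0.20, edgeR adjusted p = 0.00152). It was at 8.32, 12.7 and 23.2 CPM with ALY688, the highest being mouse 7, and at 14.9, 20.5 and 30.1 with ALY688+LPS (log2 0.80, SE 0.19, adjusted p = 0.00177), with 2 of 7 above all controls. It passed in both without the 6 libraries, at 0.96 and 1.03. With the globin covariate Cox5b did not pass in LPS against PBS (0.77, adjusted p = 0.150).

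The 4 complex IV members that fell in LPS against PBS were Cox6a1, Cox6b2, Cox6c and Cox7a2l, and 11 of the 12 tested had negative log2 fold changes. Over all genes 6426 of 12353 were negative. Cox6a1 was at 100.1, 185 and 528 CPM with PBS, the highest values being 528, 318 and 517 in mice 5, 6 and 9, and at 97.0, 70.2, 94.0 and 78.4 with LPS. The LPS mice were all below the PBS mice, but LPS mouse 2 by little, and the log2 fold change was -1.55 (SE 0.47, edgeR adjusted p = 0.0160). Without the 6 libraries it was -0.83 (adjusted p = 0.00929), and with the globin covariate it was 0.31 and not passed; without LPS mouse 6 or mouse 8 the call was lost.

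Cox6c, a small subunit with a single membrane span, was at 53.2, 113 and 304 CPM with PBS and at 38.4, 29.4, 60.2 and 35.8 with LPS. Only LPS mouse 7 overlapped the PBS mice, and the log2 fold change was -1.87 (SE 0.47, edgeR adjusted p = 0.00554), or -1.18 without the 6 libraries (adjusted p = 0.00387). Cox6b2, the testis form, was at 8.01, 28.1 and 118 CPM with PBS and at 5.12, 1.90, 13.1 and 10.97 with LPS. LPS mice 2 and 6 were below every PBS mouse and the other two inside the range; the log2 fold change was -2.59 (SE 0.71, adjusted p = 0.0102), or -1.69 without the 6 libraries (adjusted p = 0.0169). Both turned positive with the globin covariate, at 0.29 and 0.98, and did not pass.

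Cox7a2l, a factor in the assembly of respiratory supercomplexes, was at 63.5, 76.2 and 115 CPM with PBS and at 48.4, 52.4, 50.6 and 45.7 with LPS. All LPS mice were below all PBS mice (log2 -0.77, SE 0.19, edgeR adjusted p = 0.00520; -0.62 without the 6 libraries, adjusted p = 0.00465), though with library totals the sign turned to 0.42. In the ALY688 pair none of the 4 passed by edgeR with all libraries, at -0.77 for Cox6a1, -0.90 for Cox6c, -1.19 for Cox6b2 and -0.19 for Cox7a2l, while Cox6b2 was called lower by limma-voom (-1.12, adjusted p = 0.0359) and with library totals (-0.96, edgeR adjusted p = 0.0339). Without ALY688 mouse 7 and ALY688+LPS mice 6 and 8 all 4 fell, at -0.39, -0.73, -1.05 and -0.32 (edgeR adjusted p = 0.0462, 8.44e-04, 0.00993 and 0.0362). With all libraries and globin percentage as a covariate, none of the 4 passed in this pair. Complex IV then had 6 higher (Cox4i1, Cox5b, Cox6b1, Cox7a2, Cox7b and Cox7c) and 0 lower. Over all 12266 genes 3515 were then higher and 3417 lower.

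The remaining subunits of complex IV did not pass in LPS against PBS. Their log2 fold changes were -1.34 for Cox5a, -0.92 for Cox8a, -0.77 for Cox7b, -0.61 for Cox6b1, -0.55 for Cox7a2, -0.30 for Cox7c and -0.14 for Cox4i1, the widely expressed form of Cox4. Without the 6 libraries these were -0.41, -0.21, -0.15, 0.13, 0.10, 0.13 and 0.25 by edgeR, so Cox6b1, Cox7a2, Cox7c and Cox4i1 changed sign, and none passed either way. Cox5a was called lower by DESeq2 (-1.39, adjusted p = 0.0313) and in the edgeR fit of all 4 groups (-1.35, adjusted p = 0.0268).

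In complex V the subunits rose and fell in near equal number in LPS against PBS. The 4 that rose were Atp5g1 (log2 1.07, SE 0.33) and Atp5g3 (0.60, SE 0.18), which are separate genes for the c subunit of the membrane rotor, Atp5o (0.64), the stalk subunit OSCP, and Atp5c1 (0.36, edgeR adjusted p = 0.0490), the gamma subunit. Atp5g3 was at 20.6, 27.9 and 33.3 CPM with PBS and at 53.6, 47.3, 28.6 and 30.5 with LPS. LPS mice 2 and 6 were above and mice 7 and 8 inside the PBS range, and without mouse 2 or mouse 6 the call was lost. In the ALY688 pair it was at 18.8, 24.5 and 27.1 CPM against 28.6, 36.2 and 45.3 without overlap (log2 0.63, SE 0.10, adjusted p = 4.18e-05).

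Atp5f1, the stator b subunit, rose in the ALY688 pair (log2 0.73, SE 0.12, edgeR adjusted p = 2.72e-05) and did not pass in LPS against PBS (0.27) unless the 6 libraries were left out (0.53, adjusted p = 0.00659). Atp5a1, the alpha subunit, had log2 fold changes of 0.24, which did not pass, and 0.26, which did (adjusted p = 0.0382), and the second call was lost without any of 12 single mice. Atp5e, the epsilon subunit of the rotor stalk, was at 50.2, 81.7 and 299 CPM with PBS and at 48.5, 40.6, 44.2 and 38.0 with LPS. The LPS mice were all below the PBS mice, and the log2 fold change was -1.51 (SE 0.43, adjusted p = 0.0122), or -0.88 without the 6 libraries (adjusted p = 0.00683).

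Atp5b, the catalytic beta subunit, was at 253, 411 and 984 CPM with PBS and at 270, 224, 271 and 197 with LPS, with 2 LPS mice below the PBS range. Its log2 fold change of -1.07 (SE 0.40, edgeR adjusted p = 0.0441) did not pass without the 6 libraries (-0.59, adjusted p = 0.0700), and was positive with the globin covariate (0.14) and with library totals (0.26). Atp5h, the stator d subunit, fell by 1.27 on the log2 scale and was positive under the same settings, at 0.57 and 0.024. So the alpha, beta and gamma subunits of the catalytic head had log2 fold changes of 0.24, -1.07 and 0.36 in LPS against PBS and 0.26, -0.61 and 0.39 in the ALY688 pair.

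The members were also grouped by role, with core subunits taken from a hand-made list of nuclear-encoded subunits of the minimal, bacterial-type enzymes. The 23 core subunits had 7 higher and 2 lower in LPS against PBS (median log2 fold change 0.30), and the 56 accessory subunits 5 higher and 10 lower (-0.22). Without the 6 libraries the counts were 6 and 1 for core (0.31) and 10 and 8 for accessory (0.10). In ALY688+LPS against ALY688 they were 12 and 0 (0.26) and 13 and 1 (0.16), and without the 6 libraries 14 and 1 (0.27) and 23 and 5 (0.25). Over all genes 20.9% passed upward and 17.9% downward in the first comparison and 26.4% and 26.6% in the second. The difference between the roles was not tested. The counts by role were not separated from complex, so role and complex cannot be told apart in them.

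The 3 PBS libraries of few genes held the highest complex IV sums of their group and not the highest complex II sum. Over the 79 members, the mean level in PBS mice 5, 6 and 9 divided by that in the other 6 PBS mice had a median of 1.64, against 0.902 over all genes tested. In 42 members (53.2%) all 3 mice were above all 6, against 16.8% of all genes. The count was 11 of 12 in complex IV (median ratio 2.95), 5 of 9 in complex III (1.88), 9 of 17 in complex V (1.69), 17 of 37 in complex I (1.19) and 0 of 4 in complex II (0.987).

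The highest ratios were 4.32 for Ndufa1, 3.97 for Cox6b2 and 3.93 for Cox5a, and Cox6a1, Cox6c and Atp5e were at 3.08, 3.01 and 2.79. Sdhb was at 0.856. In the same 3 libraries the 9 erythroid markers summed to 1548696 to 1946046 CPM, against 328277 to 758687 in the other 6, and platelet markers were also higher. The shift was not confined to these 2 lists. Median sums were 1662 against 525 CPM for monocyte and 1337 against 748 for neutrophil markers. They were lower for B cell (1131 against 2005), T cell (292 against 362) and NK cell markers (96.0 against 131). Which of these went with the members was not tested. Among the members, shorter transcripts had higher ratios. The ratio had a Spearman rho of -0.66 and a Pearson r of -0.63 with the length of the main transcript across 79 genes. These genes share the same 9 libraries and are not independent replicates. The relation with length was not computed over all genes, so whether it is particular to the members was not tested. At or under the median length of 865 bases the median ratio was 2.29 (40 genes), and above it 1.06 (39 genes).

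**Figure D4:**
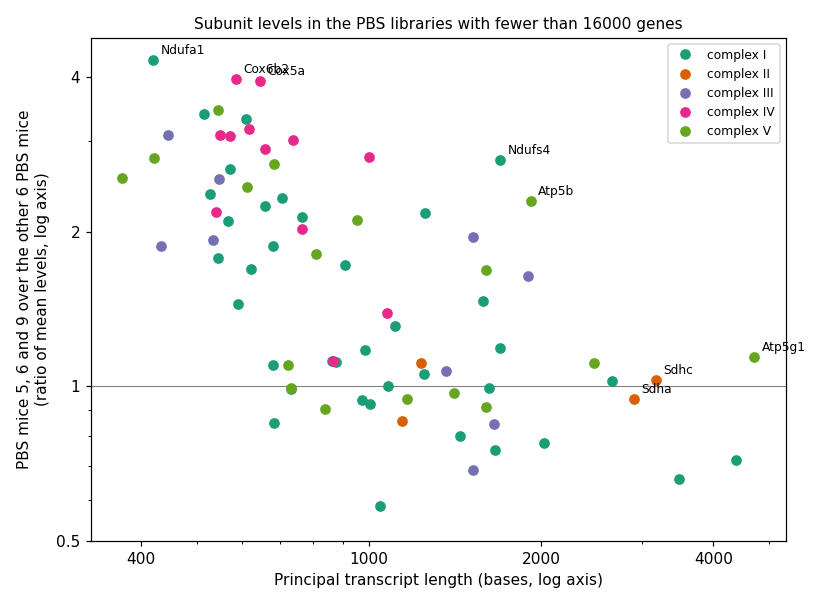
Ratio of the mean level in PBS mice 5, 6 and 9 to that in the other 6 PBS mice (y axis, log scale) against the length of the main transcript (x axis, bases, log scale) for the 79 tested members; each point is a gene, coloured by complex. All 12 complex IV members lie above 1, and the 4 members of complex II lie between 0.856 and 1.11.

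No member passed between ALY688 and PBS. Of 79 members 0 passed in ALY688 against PBS, and 0% of 11708 genes passed by edgeR; DESeq2 and limma-voom also called 0 members, and 5 members had an unadjusted p below 0.05. These 5 were Cox5a (log2 -1.04, SE 0.43), Cox6b1 (-0.75, SE 0.34), Ndufs4 (-0.68, SE 0.32), Ndufs6 (-0.64, SE 0.29) and Cox7a2l (-0.32, SE 0.14), each at an edgeR adjusted p of 0.442. The smallest p in the other complexes belonged to Sdhc (-0.16), Uqcrfs1 (-0.13) and Atp5e (-0.69).

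The median log2 fold change of the members was -0.25, against 0.03 over all genes. Of the members 66 of 79 were negative, against 5429 of 11708 genes tested. The complex medians were -0.17, -0.10, -0.31, -0.41 and -0.17 for I to V. Without the 6 libraries, 3 of them with PBS and 1 with ALY688, the members' median was -0.13 and the complex medians -0.077, -0.057, -0.10, -0.19 and -0.14. With globin percentage as a covariate the members' median turned to 0.060. The precision differed by complex: the 95% interval was -0.33 to 0.06 for Sdhb and -0.30 to 0.17 for Sdhd, and -1.40 to 0.62 for Cox6a1 and -1.75 to 0.65 for Cox6b2. Simulated 2-fold changes in this design were called for 77% of the genes changed, so changes smaller than that could go uncalled. The genes changed were drawn only from those above a minimum mean level, so the share does not cover the lowest members.

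Under LPS the agonist likewise gave no call. In ALY688+LPS against LPS, 0 of 79 members passed by edgeR, 0% of 12741 genes passed, DESeq2 and limma-voom also called 0 members, and 0 members had an unadjusted p below 0.05. The smallest p in each complex belonged to Ndufa6 (log2 0.33, SE 0.17), Sdhb (-0.21), Uqcrh (0.98, SE 0.57), Cox7b (0.68) and Atp5g1 (-0.41), and the smallest adjusted p was 0.913. The members' median was 0.01, and without the 6 libraries, 2 of them with ALY688+LPS, it was -0.042 with 48 of 79 negative and 0 calls. The median over all genes was then -0.011, and the share of all genes that were negative is not given here. The 95% interval was -0.49 to 0.08 for Sdhb, -0.26 to 0.31 for Sdhd and -0.62 to 2.34 for Cox6b2. With 4 LPS mice, 52% of simulated 2-fold changes, made in genes above a minimum mean level, were called.

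The difference between the 2 effects of ALY688, with and without LPS, was tested as an interaction over all 4 groups and 80 members, since Cox6a2 passed the filter on low counts there. None passed by edgeR, where 0% of 13476 genes passed, and DESeq2 and limma-voom also called 0 members, with 3 members at an unadjusted p below 0.05: Ndufa6 (log2 0.58, SE 0.22), Cox7a2l (0.57, SE 0.23) and Cox6b1 (1.00, SE 0.49), each at an adjusted p of 0.506. The complex II members were at -0.14 (Sdha), -0.08 (Sdhb), 0.06 (Sdhc) and 0.07 (Sdhd), with a 95% interval of -0.42 to 0.26 for Sdhb. The median was 0.26 over the members and 0.79 in complex IV. These were 0.11 and 0.22 without the 6 libraries, and with the globin covariate the members' median was -0.035.

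Around the members, other genes of respiration were taken from lists of their own, and their counts stand against 20.9% of all genes upward and 17.9% downward in LPS against PBS and 26.4% and 26.6% in the ALY688 pair. Cycs, somatic cytochrome c, which carries electrons between complexes III and IV, rose in both comparisons across LPS (log2 1.09, SE 0.20, and 0.94, SE 0.18), as did Slc25a5, an ATP/ADP carrier (0.91 and 0.86). Of 14 tested genes for electron carriers and ATP export, 5 rose and 1 fell in LPS against PBS and 6 rose and 0 fell in the ALY688 pair. Of 18 TCA cycle genes 4 rose and 0 fell, then 5 rose and 2 fell; Mdh2, malate dehydrogenase, rose by 0.80 in LPS against PBS. In the first comparison the globin covariate ended the calls of Cycs (0.75) and Slc25a5 (0.57), and the replicate block that of Slc25a5 (0.79, edgeR adjusted p = 0.0507). The assembly factors of the complexes had 5 higher and 3 lower of 44, then 5 and 7 of 45.

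Messages of the mitochondrial genome itself encode the other subunits of complexes I, III, IV and V. All 10 tested fell in LPS against PBS (median log2 fold change -1.37) and 7 of 11 fell with 0 higher in the ALY688 pair (-0.73), with mt-Nd6, a complex I subunit, at -1.01 and -0.86. With the globin covariate 1 of 10 fell in LPS against PBS (median -0.059), and with library totals none passed (median -0.16, where all genes had 1.04). Of 18 regulators of mitochondrial transcription 2 rose and 2 fell, then 2 rose and 8 fell. Tfam, which packages mitochondrial DNA and starts its transcription, fell in both (-0.84 and -0.81), though with library totals it was 0.26 in the first and did not pass. Esrra, a nuclear receptor for respiratory genes, rose in both (0.68 and 0.59), as did Hif1a, the hypoxia factor (0.56 and 0.68). In LPS against PBS neither passed with the globin covariate (Esrra 0.38, edgeR adjusted p = 0.367; Hif1a 0.37, adjusted p = 0.402), and in the ALY688 pair neither passed with library totals. The replicate block ended the Hif1a call in the first (0.49, adjusted p = 0.0637) and the Esrra call in the second (0.48, adjusted p = 0.0516). Nrf1 did not pass (0.14 and 0.07), Ppargc1b, a coactivator, did not pass in the first (-0.70) and fell in the second (-1.16), and its relative Ppargc1a had 113 counts over all 30 libraries.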

How the data were processed

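Blood RNA of 30 mice was analysed as whole-number read counts per gene that the authors deposited, 1 table per mouse. Per the labels' protocols, messenger RNA was selected with poly-T beads and primed with random hexamers. Per the submitters' processing notes the tools were HISAT2 2.0.5 and featureCounts 1.5.0-p3. Not given in the sources used here: genome build, annotation release and strand setting. Symbols, lengths and gene coordinates came from GENCODE M21 (GRCm38), which held 54495 of the 54532 IDs, and promoters from RefSeq (GRCm38.p6). Without a known strand setting, overlapping genes cannot be separated: 16 members overlap another gene's exons that had over 10% of their own counts, Cox6c (Vps13b) and Atp5j (Gabpa) among them, and 5 members have named pseudogenes (Ndufab1, Uqcrh, Atp5c1, Atp5k and Atp5l).

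Totals ranged from 9554964 to 11289689 counts in the PBS libraries, from 10893714 to 12514008 in the ALY688 libraries, from 10914821 to 17338214 in the LPS libraries and from 10087871 to 15349120 in the ALY688+LPS libraries. Counts were scaled by TMM, filtered with filterByExpr and tested in edgeR 4.0.16 (robust quasi-likelihood F-test, two-sided, R 4.3.3) on the 2 groups compared, or all 4 for the interaction, with p-values adjusted over all genes tested. Tables and figures used Python 3.11.15, pandas 2.3.3 and matplotlib 3.10.9. Tested on simulated data, 2-fold changes were called for 51% of the genes changed in LPS against PBS and 86% in ALY688+LPS against ALY688. The genes changed were above a minimum mean level, and noise was drawn for each gene independently, without shifts shared by genes of 1 library. The alternatives were DESeq2 1.42.0, limma 3.58.1 (voom), other scalings, no filter, 1 fit of all groups, globin percentage as a covariate, the mouse number as a block, libraries of at least 16000 genes, and each mouse left out. Named were, per complex and direction, up to 3 passing members with the smallest p, or the 1 with the smallest p, plus a list of core subunits and isoforms; other genes with values came from lists in the same way. The members listed as called in both comparisons or under 1 setting, those named for their levels, and the promoters shown were chosen after their values were seen. The members, lists and tests were chosen with earlier results of these data known.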

Additional observations from a re-analysis of the deposited data

Results flagged for a closer look

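Of 84 groups of values examined (complex sums and members' levels, in groups of 4 to 10 mice), 17 had a highest or lowest mouse set far apart from the rest of its group by Dixon's criterion; chance gives about 1 in 20 groups. ALY688 mouse 7 accounted for 13 of them, each as the highest of 10 mice. Its sums were 1004 CPM for complex I, 639 for complex III, 2562 for complex IV and 3500 for complex V. Its levels were 870 CPM for Cox6a1, 379 for Cox6c, 163 for Cox6b2, 23.2 for Cox5b, 75.6 for Sdha, 129 for Ndufa1, 305 for Uqcrh, 177 for Atp5e and 2179 for Atp5b. This mouse is 1 of the 6 libraries with fewer than 16000 genes, and its ratios to the other ALY688 mice followed those of PBS mice 5, 6 and 9 over the 79 members (Spearman rho 0.85, genes sharing these libraries).

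ALY688+LPS mouse 8, another of the 6, was set apart in the complex V sum (1664 CPM) and in Atp5b (728 CPM). The last 2 concern Sdhd, at 22.9 CPM in PBS mouse 5 and at 19.99 CPM in ALY688 mouse 6, each the highest of its group; the ALY688 mouse is not among the 6.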

How the results depend on the processing

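In LPS against PBS, where 12 members rose and 12 fell, library totals in place of TMM gave 53 and 1, the globin covariate 3 and 0, and the replicate block 4 higher and 9 lower. Over all genes the same settings gave 5597 higher and 298 lower of 12353, 1620 and 1645 of 12353, and 1950 and 1474 of 11881. Leaving out 1 mouse gave 5 to 17 higher (5 without LPS mouse 2, 6 without LPS mouse 6, 17 without LPS mouse 7) and 5 to 16 lower (5 without LPS mouse 6 or mouse 8, 7 without LPS mouse 2, 16 without PBS mouse 3). In ALY688+LPS against ALY688, with 25 and 1, library totals gave 7 higher, the globin covariate 34 higher and 0 lower, the replicate block 18 and 0, voom 30 and 2, no filter 23 and 0, and libraries of at least 16000 genes 37 and 6. Over all genes, in that order, 1846 were higher and 1204 lower of 12266, 3515 and 3417 of 12266, and 2517 and 2225 of 11946. The last 3 gave 3414 and 3543 of 12266, 3714 and 3628 of 26025, and 3846 and 3562 of 12735. Leaving out 1 mouse gave 20 to 40 higher and 0 to 2 lower. For the fits that left out 1 mouse, in both comparisons, the counts over all genes are not given here. The other comparisons had 0 calls in every alternative run. Signs turned in LPS against PBS with the globin covariate for Ndufa3 (0.48), Ndufa1 (0.69), Uqcrc1 (-0.088), Uqcrh (0.96), Cox6c (0.29), Cox6b2 (0.98), Cox6a1 (0.31), Atp5h (0.57) and Atp5b (0.14), and with library totals for Uqcrh (0.16), Cox7a2l (0.42), Atp5h (0.024), Cox4i1 (1.19), Cox6b1 (0.85), Cox7a2 (0.79) and Atp5b (0.26). The cause was not tested, and the globin fit could not separate globin percentage from the group. Of the 33 calls chosen by the smallest p, DESeq2, its size factors and TMM without globin genes kept all 33 in direction and call. The replicate block kept 23, library totals 18 (12 lost and 3 turned in sign) and the globin covariate 13 (13 lost and 7 turned in sign). Same-numbered mice correlated in their deviations at -0.32 to 0.15 between PBS and LPS (4 shared numbers) and at -0.53 to 0.24 between ALY688 and ALY688+LPS (7). The values were -0.27 to 0.36 between PBS and ALY688 (9) and -0.54 to 0.14 between LPS and ALY688+LPS (3). So few correlations cannot settle whether the numbers pair the groups. Simulated 2-fold changes were called for 51% of the genes changed in LPS against PBS and 52% in ALY688+LPS against LPS. Smaller changes could go uncalled, and changes under 2-fold were not simulated.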
